A study of Mus musculus with 64 samples.

Results

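The potassium channel genes were taken as every gene of the count table whose symbol starts with Kcn, which gave 99 genes of the 39153 listed. They were followed across 5 groups of mice and both ventricles, in 64 RNA-seq libraries from 32 animals. The rule used the symbol alone and no measured value. By the family of their products, 17 were voltage-gated alpha subunits of the Kcna to Kcnd families, 10 silent voltage-gated subunits, 13 members of the Kcnq and Kcnh families, 13 accessory subunits, 15 inward rectifiers, 14 two-pore domain channels and 12 calcium- or sodium-activated channels. The other 5 symbols named transcripts that make no channel protein.

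Every group carried the floxed Pkp2 alleles on a C57BL6 background, so that the controls differed from the knockout by the Cre. The Cre was αMyHC-Cre-ER(T2), which the cardiac myosin promoter drives in cardiomyocytes and which acts only after tamoxifen, so Pkp2 was kept in the other cells of the heart. WT was the Cre-negative littermates given the vehicle HBSS (9 animals), and cKO was the Cre-positive animals given HBSS (4 animals). The 3 other groups were Cre-positive animals given mouse Pkp2 in an AAV9 vector: 3e+13 vg/kg (AAV_3E13, 8 animals), 1e+14 vg/kg (AAV_1E14, 5 animals) and 1e+14 vg/kg given 2.5 weeks after tamoxifen (AAV_1E14_2.5wk, 6 animals). The labels put the first and second doses 1 week before tamoxifen, while the study's own text puts them before it in some places and after it in others. Right ventricle (RV) and left ventricle (LV) were sequenced from each animal. The untreated cKO hearts were collected within weeks of the gene deletion and all other hearts about a year after it, so genotype, treatment and time since deletion cannot be told apart in any comparison with cKO.

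Potassium channels let potassium leave the cell and so set the resting potential of the cardiomyocyte and end its action potential. In the mouse ventricle the early repolarisation is carried by fast transient outward channels and by rapidly activating delayed rectifiers, the inward rectifiers hold the resting potential, and a leak through two-pore channels adds to it. Most of these channels work as an assembly of pore-forming subunits with accessory subunits that set how many reach the membrane and how fast they open and close.

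The promoters of 5 members are shown here because these genes fell or rose in both ventricles of cKO with no overlap between the groups. They had a single RefSeq window and the highest wild-type levels among such genes. Genes on a chromosome that was set aside were left out of this choice. RefSeq windows (build GRCm38.p6, from 250 bases before to 50 bases after the start of the transcript) were found for 72 of the 99 members, 97 windows in all. Capitals mark matches, on either strand, to 4 short motifs. These are TATAAA for the box at which transcription machinery assembles, GGGCGG for the box of ubiquitous activators, AGATAA for cardiac and blood zinc finger factors, and CATTCC for the muscle element M-CAT. They are called below the TATA box, GC box, GATA motif and M-CAT motif. None of these motifs overlapped another in the windows shown. The 3 genes that fell were Kcnj3 at chr2:55435720-55436019 (plus strand), Kcnip2 at chr19:45816014-45816313 (minus strand) and Kcnj2 at chr11:111065914-111066213 (plus strand).
Kcnj3: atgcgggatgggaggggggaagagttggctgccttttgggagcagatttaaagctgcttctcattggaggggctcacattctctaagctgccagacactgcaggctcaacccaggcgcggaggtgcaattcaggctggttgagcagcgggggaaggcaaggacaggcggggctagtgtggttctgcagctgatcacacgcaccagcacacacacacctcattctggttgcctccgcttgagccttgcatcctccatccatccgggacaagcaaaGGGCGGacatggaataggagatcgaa
Kcnip2: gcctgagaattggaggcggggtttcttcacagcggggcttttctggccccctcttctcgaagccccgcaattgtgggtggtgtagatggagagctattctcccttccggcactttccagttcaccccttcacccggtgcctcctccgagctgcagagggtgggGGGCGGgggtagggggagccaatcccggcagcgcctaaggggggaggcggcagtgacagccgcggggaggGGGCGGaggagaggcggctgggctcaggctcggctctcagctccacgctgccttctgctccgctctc
Kcnj2: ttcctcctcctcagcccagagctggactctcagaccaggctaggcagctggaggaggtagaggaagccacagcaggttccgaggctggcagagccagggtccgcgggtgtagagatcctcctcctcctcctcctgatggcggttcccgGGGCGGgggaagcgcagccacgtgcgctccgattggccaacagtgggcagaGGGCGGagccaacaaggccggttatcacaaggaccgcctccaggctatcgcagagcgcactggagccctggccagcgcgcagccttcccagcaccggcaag
The 2 genes that rose were Kcnj15 at chr16:95257308-95257607 (plus strand) and Kcnk13 at chr12:99964249-99964548 (plus strand).
Kcnj15: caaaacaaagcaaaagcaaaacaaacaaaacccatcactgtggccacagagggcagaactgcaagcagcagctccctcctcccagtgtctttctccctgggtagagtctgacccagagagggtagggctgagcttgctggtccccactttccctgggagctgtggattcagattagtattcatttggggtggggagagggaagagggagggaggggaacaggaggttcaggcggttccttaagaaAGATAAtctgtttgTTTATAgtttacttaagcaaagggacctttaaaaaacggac
Kcnk13: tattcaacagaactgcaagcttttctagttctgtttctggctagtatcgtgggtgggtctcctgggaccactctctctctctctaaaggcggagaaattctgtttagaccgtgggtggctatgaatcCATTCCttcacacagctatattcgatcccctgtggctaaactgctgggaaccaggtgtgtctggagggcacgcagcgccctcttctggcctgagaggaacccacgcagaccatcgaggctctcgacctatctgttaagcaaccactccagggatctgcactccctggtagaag
The 3 windows of the fallen genes held 1, 2 and 2 GC boxes in the order printed and none of the other motifs. The Kcnj15 window held 1 GATA motif and 1 TATA box, which lies on the other strand, and the Kcnk13 window held 1 M-CAT motif. Of all 32851 windows 35.7% held a GC box, 13.6% a TATA box, 11.2% a GATA motif and 14.7% an M-CAT motif. Among the 97 windows of the members these shares were 47.4%, 5.15%, 4.12% and 14.4%. G and C made up 57.7%, 67.0% and 66.7% of the windows of Kcnj3, Kcnip2 and Kcnj2, and 49.7% and 52.7% of those of Kcnj15 and Kcnk13, against a median of 52.7% over all windows.

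The libraries held 7.96 M to 14.6 M estimated counts (M, 1000000 counts), of which 16.6% to 40.2% fell on the 37 mitochondrial genes. These genes were set aside, which left 5.34 M to 10.2 M counts per library. Within a gene, levels are given as counts per 1000000 remaining counts of the library (CPM). The library total was taken over genes passing edgeR's count filter and multiplied by the library's TMM factor, edgeR's scaling between libraries. These factors ran from 1.14 to 1.25 in cKO and from 0.865 to 1.07 in WT, so ranges and overlaps in CPM depend on them. Where genes are compared, TPM is used, which divides by transcript length and scales to a total of 1000000 without that factor. Some libraries stood apart. Of the 32 animals 1 had libraries that differed in their sex-linked transcripts: AAV_1E14_2.5wk_LV_5814 had more Xist counts than counts of Y-linked genes and AAV_1E14_2.5wk_RV_5814 the reverse, although their labels give the same animal. Counts of calls of that group are given with and without it. The library WT_RV_5819 held 665 CPM of 5 atrial cardiomyocyte markers, against a WT RV median of 27.4. AAV_1E14_2.5wk_RV_5801 lay far above the others of its group in Kcnd2, Kcnj3, Kcnn2 and Kcnv2. Of the 99 members 52 share exonic bases with a gene on the opposite strand. Whether reads were assigned by strand is not given in the sources used here, so for these genes counts of the 2 strands cannot be told apart.

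No count was found for 7 members, 48 members (these 7 among them) stayed under 1 CPM in every group, and 51 reached 1 CPM in at least 1 group. Enough counts for a test in some comparison were held by 50 members, and 49 were never tested. In WT RV 14 members reached 10 TPM and held 89.3% of the 666 TPM of all members, and in WT LV 14 members held 90.7% of 685 TPM. The order in WT RV began with the muscarinic potassium channel gene Kcnj3 (93.5 ± 12 TPM, SD, n = 9), the silent subunit gene Kcng2 (81.6 ± 11.1), the leak channel gene Kcnk3 (71.2 ± 12.2), Kcnip2 (68.6 ± 15.5), whose product carries the transient outward channels to the membrane, and the inward rectifier gene Kcnj2 (58.1 ± 9.26). Their standard deviations spanned much of the gaps between neighbours, so Kcng2, Kcnk3 and Kcnip2 were not separated beyond their spread. Kcnh2, the rapid delayed rectifier gene, followed at 46.8 ± 14.1 TPM, and Kcnn2, Kcnj5, Kcnq1, Kcna5 and Kcnd2 lay between 20.5 and 32.9 TPM. These values are shown in the plot of wild-type levels.

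**Figure D1:**
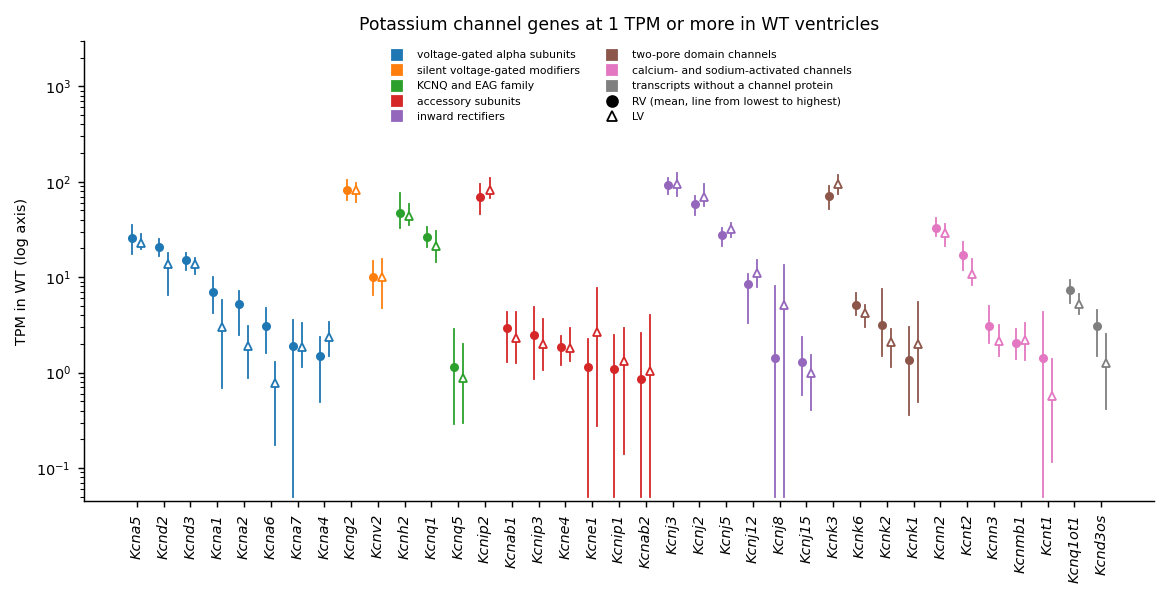
Level of the potassium channel genes in wild-type right and left ventricle, in TPM on a log axis, as the mean of 9 animals with a line from the lowest to the highest animal, zeros being drawn at 0.05. Kcnj3, Kcng2 and Kcnk3 head the right ventricle at 93.5, 81.6 and 71.2 TPM.

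Pkp2, the gene deleted, was measured first. In RV it ranged over 125, 152 and 187 CPM (lowest, median and highest of 9 WT libraries) and was 37.9, 39.5, 59.8 and 98.6 CPM in the 4 cKO libraries. In LV it ranged over 161, 197 and 221 CPM in WT and was 34.4, 64, 81.7 and 87.9 CPM in cKO. All cKO libraries lay below all WT libraries in each ventricle (log2 fold change -1.29, SE 0.22, edgeR adjusted p = 2.73e-04 in RV; -1.51, SE 0.20, adjusted p = 2.44e-05 in LV). With the vector, the RV median rose to 298 CPM in AAV_3E13 and to 1787 CPM in AAV_1E14_2.5wk, and the 5 AAV_1E14 libraries held 494 to 1849 CPM. Counts do not separate the vector's transcript from the animal's own.

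In cKO RV, 26 of the 47 members tested passed the threshold of 0.05 on the edgeR adjusted p (quasi-likelihood test, Benjamini-Hochberg adjustment over all genes), 7 higher and 19 lower. Of all genes tested in RV, 22.0% were called higher and 20.3% lower. In LV, 26 of 42 members were called, 6 higher and 20 lower, where 23.6% and 23.0% of all genes were called. The median log2 fold change of the members tested was -0.52 in RV and -1.07 in LV, beside 0.02 and 0.05 over all genes. The members called lower in both ventricles numbered 17, which is 89.5% of the RV list and 85.0% of the LV list, and 5 were called higher in both. No member was called in opposite directions. The ventricles share their animals, so these are not independent counts. The map of members by library shows the blocks.

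**Figure D2:**
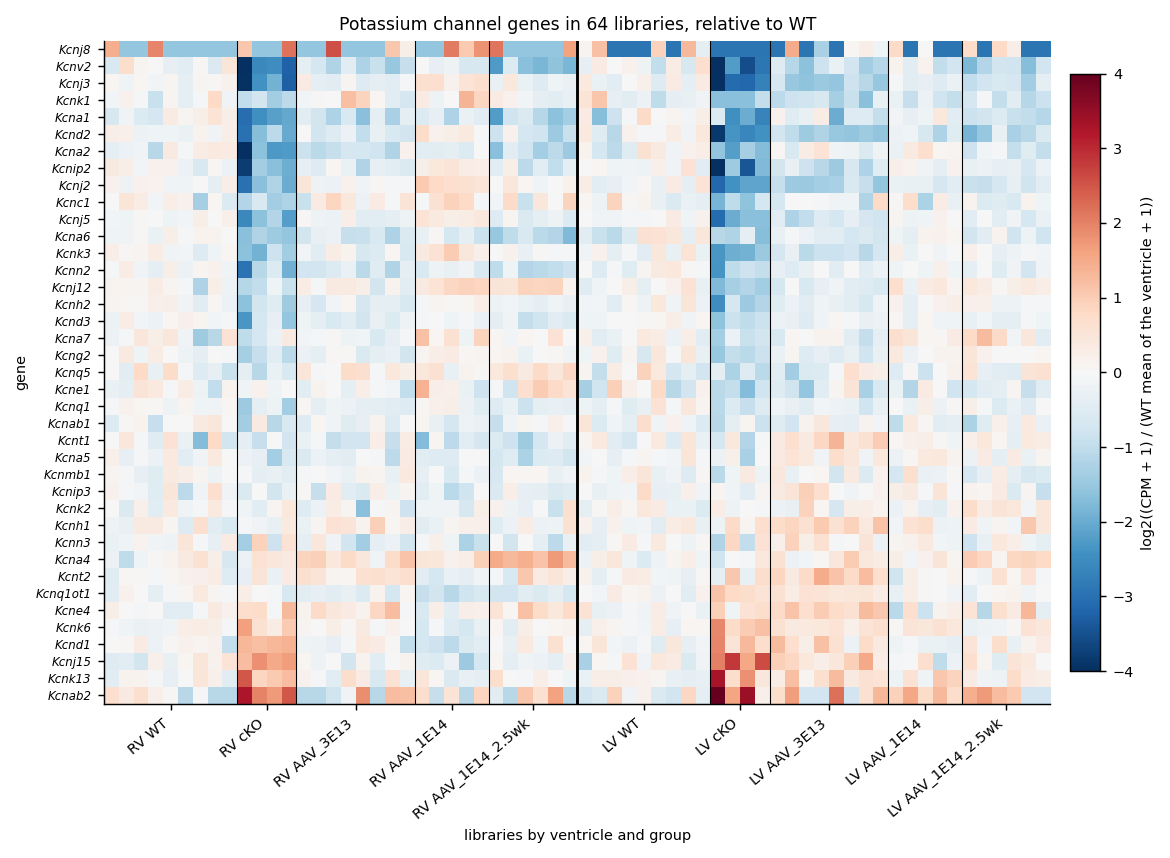
Each row is a member that was tested in cKO against WT and reached 2 CPM in a group, and each column 1 of the 64 libraries, coloured by the log2 ratio of CPM + 1 to the WT mean of the same ventricle + 1. The cKO columns hold the deepest falls, Kcnj3 and Kcnv2 among them, and the rises of Kcnk6, Kcnj15 and Kcnab2.

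Of the inward rectifiers, 4 of the 7 tested in RV were called lower, as were 5 of the 6 tested in LV, while 1 rose in each ventricle. Kcnj3, which encodes a pore subunit of the channel that acetylcholine opens through a G protein, ranged over 181, 249 and 269 CPM in WT RV and was 14.4, 24, 44 and 63 CPM in the 4 cKO RV libraries. In LV it ranged over 180.0, 251 and 331 CPM in WT and was 10.8, 28, 29.4 and 38.7 CPM in cKO. Every cKO library thus lay far below the lowest WT library (log2 fold change -2.65, SE 0.30, edgeR adjusted p = 1.01e-05 in RV; -3.23, SE 0.31, adjusted p = 2.86e-06 in LV). Kcnj5 encodes the subunit that pairs with it in the same channel. It ranged over 67.7, 77.1 and 92.8 CPM in WT RV and was 12.2, 16.4, 24.5 and 34.5 CPM in cKO RV, again without overlap (-1.78, SE 0.22, adjusted p = 1.75e-05; LV -2.03, SE 0.22, adjusted p = 6.88e-06).

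Kcnj2 and Kcnj12 encode the channels that hold the resting potential of the ventricular cell. Kcnj2 ranged over 126, 160.4 and 198 CPM in WT RV and was 19.6, 40.9, 51 and 69.7 CPM in cKO RV. In LV it ranged over 157, 194 and 308 CPM in WT and was 23.1, 38.4, 47.8 and 47.9 CPM in cKO. The groups were apart in each ventricle (-1.79, SE 0.25, edgeR adjusted p = 4.84e-05 in RV; -2.40, SE 0.24, adjusted p = 4.63e-06 in LV). Kcnj12 was a low gene, with 10.1, 14.3 and 22 CPM in WT LV and 3.53, 4.88, 5.14 and 5.75 CPM in cKO LV, where the groups did not overlap (-1.55, SE 0.23, adjusted p = 8.22e-05). In RV the library WT_RV_5813 lay at 4.61 CPM under all cKO libraries (4.93, 5.56, 6.05 and 10.7 CPM), and the call was weaker (-0.78, SE 0.28, adjusted p = 0.0326) and was lost when single libraries were left out.

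Kcnk3 encodes an acid-sensitive two-pore leak channel. It ranged over 100.1, 147 and 175 CPM in WT RV and was 37.7, 44.8, 53.7 and 80.2 CPM in cKO RV. The LV values were 137, 164 and 269 CPM in WT and 35.8, 46.3, 48.9 and 63.8 CPM in cKO. The groups did not overlap (-1.34, SE 0.19, edgeR adjusted p = 5.66e-05 in RV; -1.89, SE 0.23, adjusted p = 1.36e-05 in LV). Another two-pore channel gene, Kcnk1, was called lower in each ventricle with overlap between the groups (1.61 ± 0.856 CPM in WT RV, n = 9, and 0.292 ± 0.236 in cKO RV, n = 4). The stretch-gated Kcnk2 was not called (log2 fold change 0.09 in RV and 0.04 in LV, with 3.36 to 6.75 CPM in cKO RV beside 2.87 to 6.65 in WT RV).

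The genes of the fast transient outward channel fell together with their accessory subunit. Kcnd2 encodes a pore subunit and ranged over 48.7, 53.4 and 72.1 CPM in WT RV, against 6.69, 13.9, 17.5 and 28.5 CPM in cKO RV. In LV the WT values were 18.9, 40.2 and 55.7 CPM and the cKO values 1.96, 6.0, 7.0 and 7.24 CPM. The cKO values stayed under every WT value (-1.77, SE 0.27, edgeR adjusted p = 1.20e-04 in RV; -2.88, SE 0.35, adjusted p = 1.42e-05 in LV). Kcnd3, the other pore subunit, ranged over 47.5, 52.7 and 68.1 CPM in WT RV and was 10.3, 18.3, 33.7 and 44.1 CPM in cKO RV, a smaller fall that was also without overlap (-1.0, SE 0.27, adjusted p = 0.00819; LV -1.06, SE 0.15, adjusted p = 4.31e-05). Kcnip2 ranged over 50.3, 80.6 and 99 CPM in WT RV against 4.6, 19.2, 23.8 and 29 CPM in cKO RV, and over 65.3, 79.3 and 129 CPM in WT LV against 2.35, 7.25, 24.9 and 32 CPM. Its groups were separate in each ventricle (-1.95, SE 0.34, adjusted p = 3.21e-04; -2.36, SE 0.47, adjusted p = 8.27e-04).

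Kcna4, which encodes the slow transient outward channel, was not called in cKO. It ranged over 1.64, 4.51 and 7.19 CPM in WT RV, and the cKO RV values of 3.51, 5.79, 6.31 and 6.90 CPM lay inside that range (log2 fold change 0.45, edgeR adjusted p = 0.293; LV -0.04, adjusted p = 0.912). Kcna5, the ultrarapid delayed rectifier gene, was also uncalled. Its WT RV values were 32.3, 41 and 57.4 CPM and its cKO RV values 16.3, 28.3, 34.3 and 36.4 CPM, so the groups overlapped (-0.52, SE 0.21, adjusted p = 0.0591; LV -0.22, SE 0.22, adjusted p = 0.443). A p that misses the threshold does not show that these genes held their level.

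**Figure D3:**
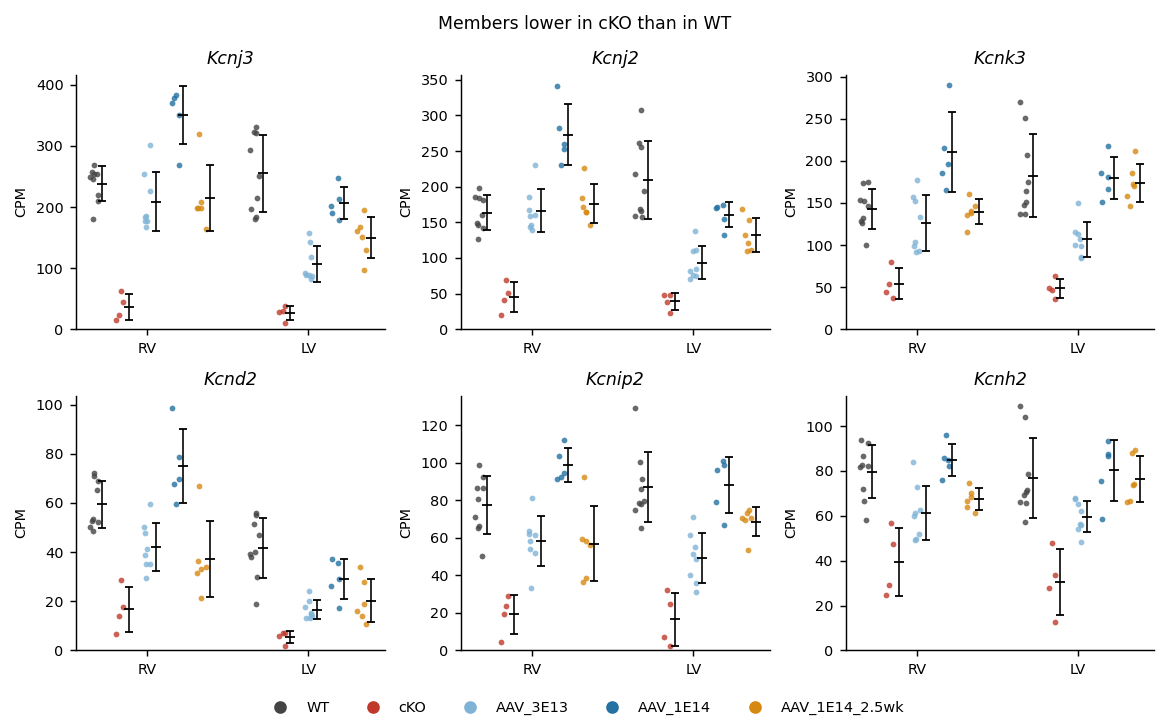
Points give the CPM of Kcnj3, Kcnj2, Kcnk3, Kcnd2, Kcnip2 and Kcnh2, 1 point per library, for the 5 groups in RV and LV, and bars give mean and SD. In each panel the 4 cKO libraries of a ventricle lie below all 9 WT libraries of that ventricle, Kcnj3 at 14.4 to 63 CPM in RV against 181 to 269.

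The delayed rectifier genes Kcnh2 and Kcnq1 were called lower in each ventricle. Kcnh2, which carries the rapid component, ranged over 58.1, 82.3 and 93.7 CPM in WT RV and was 24.7, 29, 47.3 and 56.7 CPM in cKO RV. Its LV values were 57.4, 70.6 and 109 CPM in WT and 12.8, 27.6, 33.8 and 47.9 CPM in cKO. The highest cKO library was just under the lowest WT library in RV (-0.95, SE 0.20, edgeR adjusted p = 0.00152; LV -1.31, SE 0.27, adjusted p = 0.00117). Kcnq1, which carries the slow component, ranged over 33.5, 40.006 and 43.5 CPM in WT RV against 13.4, 14.1, 29.2 and 33 CPM in cKO RV. The groups met without overlapping (-0.71, SE 0.21, adjusted p = 0.0146), but leaving out cKO_RV_2006 or cKO_RV_3217 ended this call. Kcnq1 shares exonic bases with Kcnq1ot1 on the opposite strand of chromosome 7. Its partner Kcne1 stayed near 1 CPM in RV (0.998 ± 0.592 CPM in WT, n = 9, and 0.942 ± 0.221 in cKO, n = 4) and was called lower in LV, where the groups overlapped (-1.80, SE 0.71, adjusted p = 0.0483).

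Kcnv2 and Kcng2 encode silent subunits, which open no pore of their own and change the channels they join. Kcnv2 ranged over 20.2, 31.1 and 51.3 CPM in WT RV and was 0.767, 2.45, 4.41 and 4.73 CPM in cKO RV. In LV it ranged over 15.2, 31 and 49.7 CPM in WT and was 0.653, 1.75, 3.29 and 5.77 CPM in cKO. This was the deepest fall among the members called lower without overlap in RV (-3.27, SE 0.41, edgeR adjusted p = 2.00e-05; LV -3.38, SE 0.46, adjusted p = 3.62e-05). Kcng2, the second highest member by TPM in WT RV, ranged over 66.9, 86.3 and 112 CPM and was 34.5, 40.8, 45.5 and 65.1 CPM in cKO RV, below all WT libraries (-0.85, SE 0.17, adjusted p = 8.86e-04; LV -1.08, SE 0.22, adjusted p = 8.89e-04).

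Kcna1, Kcna2 and Kcna6 encode voltage-gated subunits best known from axons. Kcna1 ranged over 10.4, 18.5 and 25.2 CPM in WT RV and was 1.21, 2.30, 3.02 and 3.33 CPM in cKO RV. Kcna2 ranged over 16, 33.4 and 46.8 CPM in WT RV and was 1.10, 6.44, 6.57 and 10.8 CPM in cKO RV. Kcna6 ranged over 5.73, 7.14 and 8.46 CPM in WT RV and was 1.53, 1.75, 1.97 and 2.49 CPM in cKO RV. All 3 were called lower in RV without overlap, at log2 fold changes of -2.71, -2.43 and -1.78 (edgeR adjusted p = 1.56e-05, 3.36e-04 and 1.91e-05). In LV, Kcna2 was called at -1.93, Kcna1 was called with overlap, and Kcna6 was not called (-1.87, SE 0.75, adjusted p = 0.0534). The summed level of 6 Schwann cell and neuron markers, which is where these channels are known from, was 23.5 to 40.4 CPM in WT RV and 26 to 42 CPM in cKO RV. Uchl1 alone held a mean of 21.8 CPM of a mean sum of 32.3 in cKO RV, so the sum there mostly reflected 1 gene. Of 4 of the 6 markers tested, 1 was called higher and 3 lower in RV, and 1 higher and 0 lower in LV. The part of these markers in the fall of Kcna1, Kcna2 and Kcna6 was not tested. Kcnc1, which encodes a fast voltage-gated channel, fell from 3.55 ± 1.63 CPM in WT LV (n = 9) to 0.956 ± 0.707 in cKO LV (n = 4) without overlap (-1.84, SE 0.49, adjusted p = 0.00655). Kcnip1, a relative of Kcnip2, was called lower in RV and Kcna7 in LV, each under 2 CPM on average in WT and with overlap.

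Kcnn2, the small-conductance calcium-activated channel gene, ranged over 35.5, 44 and 56.9 CPM in WT RV and was 5.04, 11.3, 20.7 and 30.9 CPM in cKO RV. The LV values were 28.6, 40.6 and 56.1 CPM in WT and 7.32, 19.8, 20.8 and 23 CPM in cKO. The groups did not overlap (-1.38, SE 0.33, edgeR adjusted p = 0.0034 in RV; -1.20, SE 0.26, adjusted p = 0.00158 in LV). The sodium-activated channel gene Kcnt2 was not called in cKO (0.18 and 0.45, adjusted p = 0.468 and 0.145). In most of these genes the lowest cKO library was cKO_RV_2006 in RV and cKO_LV_2006 in LV. Without cKO_RV_2006, 25 members were called, 7 higher and 18 lower.

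The channel genes that rose in cKO had low levels in WT. Kcnk6, a two-pore channel gene, was the highest of those called in both ventricles and ranged over 9.45, 10.7 and 14.2 CPM in WT RV and 14.2, 18, 24.7 and 37.9 CPM in cKO RV. In LV the values were 7.19, 9.94 and 11.9 CPM in WT and 16.4, 20.2, 22.5 and 38.8 CPM in cKO. The lowest cKO library in RV only just cleared the highest WT library (1.11, SE 0.21, edgeR adjusted p = 6.84e-04), and in LV the gap was wider (1.38, SE 0.21, adjusted p = 7.41e-05). Kcnj15, an inward rectifier gene of epithelia, ranged over 1.74, 3.78 and 5.61 CPM in WT RV and was 9.64, 12.1, 13.4 and 15.1 CPM in cKO RV. Its LV values were 0.639, 2.78 and 4.96 CPM in WT and 10.7, 15.2, 23.2 and 27.3 CPM in cKO. The groups stood well apart (1.89, SE 0.28, adjusted p = 7.99e-05 in RV; 2.68, SE 0.35, adjusted p = 2.96e-05 in LV).

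Kcnk13, a two-pore channel gene known from microglia, ranged over 0.510, 1.02 and 1.84 CPM in WT RV and was 2.68, 3.16, 3.77 and 10.4 CPM in cKO RV (2.34, SE 0.41, edgeR adjusted p = 3.32e-04; LV 3.23, SE 0.58, adjusted p = 3.49e-04). Kcnab2, the gene of an accessory subunit of voltage-gated channels, ranged over 0, 1.21 and 2.46 CPM in WT RV and was 6.05, 7.58, 11 and 19.2 CPM in cKO RV (3.27, SE 0.68, adjusted p = 0.0013). In LV its cKO values were spread from 0.954 to 26.3 CPM and overlapped WT. Kcnd1, a minor relative of Kcnd2, rose from 1.30 ± 0.490 CPM in WT RV (n = 9) to 4.74 ± 0.319 in cKO RV (n = 4), without overlap (1.91, SE 0.36, adjusted p = 5.47e-04; LV 1.88, SE 0.42, adjusted p = 0.00196). The highest cKO library of Kcnk6, Kcnk13 and Kcnab2 was cKO_RV_2006 in RV and cKO_LV_2006 in LV.

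Kcne4 and Kcna3 were called higher in RV with overlap between the groups. Kcna3 encodes the voltage-gated channel of T cells and macrophages and stood at 1.31, 1.32, 1.53 and 2.59 CPM in cKO RV beside 0, 0.340 and 1.36 CPM in WT RV (1.96, SE 0.62, edgeR adjusted p = 0.0189). Its call was lost without cKO_RV_2052, and that of Kcne4 without cKO_RV_3217. Kcnq1ot1 is a long non-coding RNA made from the strand opposite to Kcnq1 and is no channel. It ranged over 236, 320.3 and 405 CPM in WT LV and was 466.3, 521, 566 and 708 CPM in cKO LV, above all WT libraries (0.83, SE 0.14, adjusted p = 1.91e-04). In RV its cKO values of 271 to 509 CPM lay among those of WT (-0.01, adjusted p = 0.969). The difference between the ventricles was -0.88 (SE 0.23) with adjusted p = 0.182, and passed the threshold with the animal as a replicate block (-0.89, adjusted p = 0.0305) and with DESeq2 (-0.87, adjusted p = 0.0402).

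**Figure D4:**
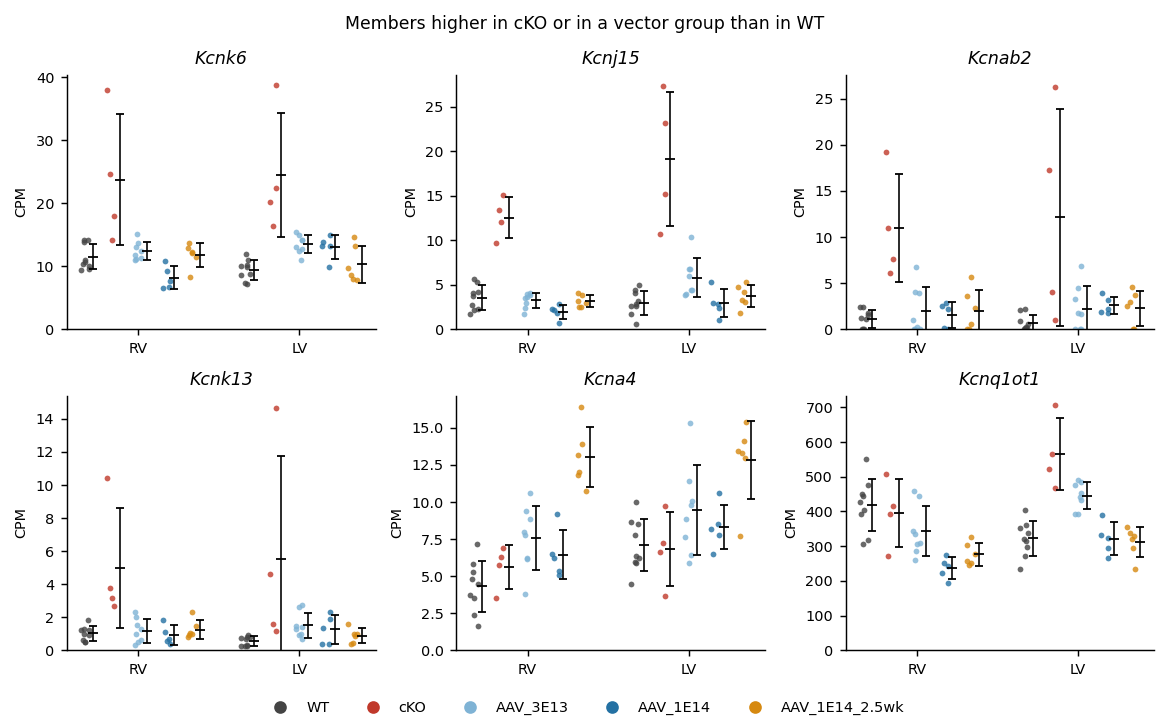
Points give the CPM of Kcnk6, Kcnj15, Kcnab2, Kcnk13, Kcna4 and Kcnq1ot1, 1 point per library, for the 5 groups in RV and LV, and bars give mean and SD. The cKO libraries stand above WT in Kcnj15 in both ventricles (9.64 to 15.1 CPM against 1.74 to 5.61 in RV), and Kcna4 is highest in AAV_1E14_2.5wk.

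Markers of the cell types in the ventricle moved in the same comparison. In RV the 7 cardiomyocyte markers summed to 29239 to 41455 CPM in WT and to 7788 to 26937 CPM in cKO, and all 7 were called lower (median log2 fold change -1.35; LV -1.79, 7 of 7 lower). Of the members called lower, 13 of 19 in RV and 13 of 20 in LV fell further than the median cardiomyocyte marker. Every one of these markers was passed by 8 and 7 members, the markers ranging from -1.87 to -0.82 in RV and from -2.21 to -1.06 in LV. The members so counted were selected by their fall, so these counts do not describe all members. Over all members tested the median was -0.52 in RV and -1.07 in LV, shallower than the marker medians of -1.35 and -1.79. In bulk tissue fewer cells of a type and less RNA per cell cannot be told apart. The fibroblast markers rose from 687 to 1248 CPM in WT RV to 3855 to 7436 CPM in cKO RV (4 of 6 higher, median 2.30), and the macrophage markers from 57.5 to 99.4 CPM to 235 to 547 CPM (4 of 4 higher, median 2.82). In LV the macrophage sum was 47.6 to 90.2 CPM in WT and 117 to 607 CPM in cKO (4 of 4 higher), and 3 of 6 fibroblast markers were higher. Only 1 of 4 T cell markers could be tested in RV and 2 in LV, and these were higher. Of the 6 smooth muscle and pericyte markers 3 rose and 1 fell in RV and 1 rose and 1 fell in LV. Of 5 endothelial markers 1 fell in RV and 1 rose in LV, and of the conduction system markers 2 fell in each ventricle. Of the 5 atrial markers, 2 could be tested in RV and 1 in LV, and Nppa was called higher in each ventricle. The atrial sum was 214 to 583 CPM in cKO RV and 333 to 757 CPM in cKO LV. Nppa alone held a mean of 375 CPM of a mean sum of 377 in cKO RV, and 587 of 588 in cKO LV. The study measured Nppa as a heart failure marker. Of the 5 markers of conduction cells, 4 were tested. The part of these shifts in the falls and rises of the members was not tested.

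A list of 20 genes of cardiac repolarisation, all members, held 11 called lower and 0 higher among 18 tested in RV, and 13 lower and 0 higher among 18 in LV. Of all genes tested, 20.3% were called lower and 22.0% higher in RV, and 23.0% and 23.6% in LV. These calls are part of the member counts above, and the lists were chosen with earlier results of these data known. The repolarisation calls are therefore not a separate result. The median log2 fold change of the repolarisation list was -0.86 in RV and -1.43 in LV. Genes that work with the channels were counted on 3 other lists. Of 12 partner proteins, 11 were tested, and 9 were lower and 1 higher in RV and 7 lower and 1 higher in LV. The one with the smallest p was Abcc9, the regulatory subunit of the ATP-sensitive potassium channel (-1.54, SE 0.15, edgeR adjusted p = 2.12e-06 in RV; -1.77, SE 0.20, adjusted p = 1.03e-05 in LV). Nedd4l, a ubiquitin ligase, and Abcc8, the other regulatory subunit, were lower in RV (-1.10 and -1.14), Ank2, an anchor of membrane proteins, was lower in LV (-0.89), and Cttn, an actin-binding protein, was higher in LV (0.74). Of 8 transcription factors linked to ion channel gradients, 4 of 8 were lower in RV and 8 of 8 in LV, led by Tbx5 (-1.70, SE 0.29, adjusted p = 2.69e-04; -1.97, SE 0.20, adjusted p = 4.32e-06). Klf15, which sets the daily rhythm of Kcnip2, was lower in RV (-1.47, SE 0.27, adjusted p = 4.58e-04). Of 9 potassium pumps and cotransporters, 5 were lower and 1 higher in RV and 5 lower in LV, among them Slc12a7, a potassium-chloride cotransporter (-0.59, SE 0.13, edgeR adjusted p = 0.00259 in RV; -0.96, SE 0.14, adjusted p = 7.58e-05 in LV). The cardiomyocyte markers fell with these lists too.

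Of the channels that ATP closes, the pore subunits gave no usable levels. Kcnj8 was listed at 0 in all 4 cKO LV libraries and was spread from 0 to 17.9 CPM in WT LV with a median of 4.75 CPM, so it was called lower, and no fold is given. In RV it was listed at 0 in 7 of 9 WT libraries and in 2 of 4 cKO libraries, the others holding 5.26 and 12.2 CPM. Kcnj11 was listed at 0 in every cKO library and stayed at or under 0.528 CPM in WT. Values that jump between 0 and several CPM within a group were not read as levels. The call of Kcnj8 is still included in the cKO LV counts above of members, inward rectifiers and repolarisation genes called lower.

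At the lower early dose, members were called in each ventricle. In AAV_3E13 against WT, 14 of 36 members were called in RV, 3 higher and 11 lower, where 11.8% and 10% of all genes were called, and 18 of 40 in LV, 9 higher and 9 lower, where 19.9% and 19.2% were called. In LV the inward rectifiers were among the lower members. Kcnj3 ranged over 82.5, 90.3 and 158 CPM in the 8 AAV_3E13 LV libraries, all under the lowest WT LV library (-1.23, SE 0.16, edgeR adjusted p = 1.41e-05), while the RV libraries ranged over 167, 184 and 302 CPM and overlapped WT (-0.18, adjusted p = 0.266). Kcnj2 followed the same pattern, with 71, 83.5 and 138 CPM in LV (-1.15, SE 0.16, adjusted p = 2.21e-05) and 139, 159 and 231 CPM in RV (0.03, adjusted p = 0.861). Kcnj5 was lower in LV as well (-0.67, SE 0.11, adjusted p = 1.01e-04).

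In AAV_3E13 RV, Kcna1, Kcna2, Kcna6, Kcnd2, Kcnd3, Kcnv2, Kcnh2, Kcnq1, Kcnip2 and Kcnn2 were among those called lower, at log2 fold changes from -0.90 to -0.30, and Kcnn2 had the smallest p (-0.68, SE 0.13, edgeR adjusted p = 0.00198). Its libraries ranged over 19.2, 29.2 and 37.9 CPM, with the highest inside the WT range. No member called in AAV_3E13 RV was free of overlap with WT. Of those called higher in LV, Kcnt2, the gene of a sodium-activated channel, ranged over 35.5, 49.4 and 77.7 CPM against 21.2, 26.7 and 34.6 CPM in WT LV, without overlap (1.00, SE 0.14, adjusted p = 3.13e-05). Kcne4, an accessory subunit that inhibits voltage-gated channels, ranged over 4.30, 5.47 and 7.26 CPM against 1.81, 2.17 and 4.15 CPM (1.21, SE 0.20, adjusted p = 1.07e-04). The cardiomyocyte markers summed to 23087 to 33199 CPM in AAV_3E13 LV against 39481 to 49706 CPM in WT LV, and 7 of 7 were called lower. In RV they summed to 26288 to 41918 CPM against 29239 to 41455 CPM in WT RV, and 2 of 7 were called lower. The 6 fibroblast markers summed to 1307 to 2551 CPM in AAV_3E13 LV against 812 to 1152 CPM in WT LV, and to 1387 to 2546 CPM in RV against 687 to 1248 CPM, without overlap (6 of 6 called higher in LV and 5 of 6 in RV). Of the 4 macrophage markers 4 were higher in LV and 1 in RV, and of the 5 endothelial markers 4 were higher in LV and 4 lower in RV. The part of these markers in the calls was not tested.

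At the higher early dose calls against WT were made in RV and none in LV. In AAV_1E14 against WT in LV, edgeR called 0 of 40 members and 0.00750% of all genes, 4 members had an unadjusted p under 0.05, and DESeq2 also called 0. In RV 9 of 42 members were called, 5 higher and 4 lower, beside 15.4% and 14.1% of all genes. The 5 higher were the inward rectifiers Kcnj2, Kcnj3, Kcnj5 and Kcnj12 and the leak channel gene Kcnk3. Kcnj2 was 229.9, 252, 259.6, 283 and 341 CPM in the 5 libraries, all above the highest WT RV library (0.74, SE 0.11, edgeR adjusted p = 4.19e-04). Kcnj12 was 16, 18, 22.2, 22.7 and 23.7 CPM, above all of WT RV, which reached 15 CPM (0.75, SE 0.20, adjusted p = 0.00999).

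Kcnj3 in AAV_1E14 RV was 268, 351, 369.8, 378 and 383 CPM, and the lowest library, AAV_1E14_RV_5726, met the WT range (0.55, SE 0.10, edgeR adjusted p = 0.00116). Kcnq1ot1 went the other way, with 193, 222, 242, 251 and 275 CPM against 307, 426 and 551 CPM in WT RV (-0.83, SE 0.13, adjusted p = 5.07e-04). Kcnk6, which had risen in cKO, was lower than WT (6.61, 6.67, 7.69, 9.20 and 10.8 CPM; -0.49, adjusted p = 0.0337), as were Kcnd1 and Kcnn2. The cardiomyocyte markers summed to 40051 to 49343 CPM in these libraries against 29239 to 41455 in WT RV, with 6 of 7 called higher and 1 lower. All 5 endothelial markers were called lower, and none of the 6 fibroblast markers was called. Their part was not tested. The number of members called moved between 6 and 14 as single libraries were left out, the 6 without AAV_1E14_RV_5726 and the 14 without WT_RV_13, and was 7 (5 higher, 2 lower) without WT_RV_5819.

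The same dose given after tamoxifen was compared with WT. In AAV_1E14_2.5wk against WT in RV 18 of 42 members were called, 4 higher and 14 lower, beside 17.8% and 18.5% of all genes. In LV 4 of 39 were called, 1 higher and 3 lower, beside 0.859% and 0.633%, and this count was 0 without any one of WT_LV_13, WT_LV_5813, WT_LV_5823, AAV_1E14_2.5wk_LV_5755 and AAV_1E14_2.5wk_LV_5810, 1 without WT_LV_2031 or WT_LV_2040, 2 without AAV_1E14_2.5wk_LV_5806 and 5 without AAV_1E14_2.5wk_LV_5814. Kcna4 was the member that rose in each ventricle. In RV it ranged over 10.7, 12.6 and 16.4 CPM in the 6 libraries, all above the highest WT library at 7.19 CPM (1.59, SE 0.24, edgeR adjusted p = 1.06e-04), and in LV over 7.71, 13.4 and 15.4 CPM against 4.49, 6.34 and 10.02 CPM (0.86, SE 0.18, adjusted p = 0.0287).

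Among the members lower in RV of AAV_1E14_2.5wk, Kcna5 ranged over 17.4, 27.8 and 30.7 CPM, below all WT libraries (-0.71, SE 0.15, edgeR adjusted p = 0.00176). Kcna6 ranged over 1.36, 2.70 and 4.32 CPM (-1.41, SE 0.22, adjusted p = 1.41e-04), and did not overlap WT either. Kcnd2, Kcnd3, Kcnv2, Kcnq1, Kcnn2, Kcna1 and Kcna2 were also lower, at log2 fold changes from -1.61 to -0.45. The RV count was 20 without AAV_1E14_2.5wk_RV_5801 and 17 without AAV_1E14_2.5wk_RV_5814. Cell type markers moved in the same comparison. The fibroblast markers summed to 1188 to 3212 CPM in RV of AAV_1E14_2.5wk against 687 to 1248 CPM in WT RV (4 of 6 higher), and the T cell markers to 4.21 to 9.12 CPM against 1.19 to 2.72 CPM, without overlap. The endothelial markers summed to 839 to 1157 CPM against 1106 to 1641 CPM (5 of 5 lower), and the atrial markers to 31.6 to 639 CPM against 6.12 to 665 CPM. In LV of AAV_1E14_2.5wk Nppa alone held a mean of 423 CPM of a mean atrial sum of 434. In RV 1 of the 7 cardiomyocyte markers was higher and 1 lower. Their part in the calls was not tested. In LV Kcnj3 (-0.75, SE 0.17, adjusted p = 0.039), Kcnj2 (-0.65, SE 0.16, adjusted p = 0.0471) and Kcnv2 (-1.14, SE 0.25, adjusted p = 0.0368) were called lower with overlap.

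Against cKO, many members were higher in each vector group. In RV edgeR called 17 higher and 5 lower of 46 in AAV_3E13 (19.4% and 22.7% of all genes), 18 higher and 8 lower of 43 in AAV_1E14 (24.2% and 26.4%) and 16 higher and 9 lower of 46 in AAV_1E14_2.5wk (22.6% and 25.2%). In LV the counts were 14 higher and 4 lower of 44 (8.58% and 9.45%), 17 higher and 5 lower of 41 (17.3% and 18.1%) and 17 higher and 5 lower of 41 (17.4% and 15.9%). The 3 groups share the 4 cKO animals and the difference in time since deletion, so these are not independent counts. Without AAV_1E14_2.5wk_RV_5814 or AAV_1E14_2.5wk_LV_5814 the counts of that group were 16 higher and 8 lower in RV and 14 higher and 4 lower in LV. The cardiomyocyte markers were higher in each comparison, 5 to 7 of 7, with a mean sum in RV of 15976 CPM in cKO and 32367, 46060 and 36222 CPM in the vector groups in the same order. All 4 macrophage markers were lower in each, and 3 of 6 fibroblast markers, whose mean sum in RV was 5170 CPM in cKO and 1928, 1081 and 2020 CPM in the vector groups. Of the fibroblast markers 1 was higher in each ventricle of AAV_3E13. Their part in the calls was not tested. Kcnj3 had a large rise in each: the log2 fold changes in RV were 2.48 (SE 0.34, adjusted p = 8.56e-05), 3.26 (SE 0.38, adjusted p = 6.24e-05) and 2.54 (SE 0.37, adjusted p = 2.31e-04) in the order of the groups above, and in LV 1.95, 2.91 and 2.48. Kcnj2, Kcnj5, Kcnj12, Kcnk3, Kcnd2, Kcna2, Kcnv2, Kcng2, Kcnh2 and Kcnip2 were likewise called higher in all 6 comparisons, and Kcnj15 and Kcnk6 were called lower in all 6.

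Other members called against cKO included silent, accessory and minor pore subunits. Kcnv2 was higher by 2.97 in AAV_1E14 RV (SE 0.42, edgeR adjusted p = 1.82e-04) and by 3.05 in its LV. Kcnab2 was lower in RV of AAV_3E13, AAV_1E14 (-2.82, SE 0.75, adjusted p = 0.00891) and AAV_1E14_2.5wk (-2.44, SE 0.85, adjusted p = 0.034). Kcnd1 was lower in AAV_1E14 RV (-3.53, SE 0.43, adjusted p = 7.73e-05), with 0.120 to 0.687 CPM against 4.31 to 5.08 in cKO RV. Kcnk13 was lower in AAV_3E13 RV (-2.09, SE 0.49, adjusted p = 0.00388), and Kcna3 in AAV_1E14_2.5wk RV (-2.12, SE 0.66, adjusted p = 0.0202). Kcnk1 was higher in RV of AAV_3E13 (2.70) and AAV_1E14 (3.18). Kcnb2, a voltage-gated pore gene, was barely present in cKO RV (0 in 2 libraries, then 0.0959 and 0.526 CPM) and stood at 0.543, 1.30 and 2.24 CPM in AAV_3E13 RV and 1.14, 2.16 and 6.54 CPM in AAV_1E14_2.5wk RV, while the AAV_1E14 RV libraries held 0 to 0.275 CPM.

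The early doses were compared directly. In AAV_1E14 against AAV_3E13, 14 of 41 members were called in RV, 10 higher and 4 lower, beside 5.02% and 4.95% of all genes, and 14 of 42 in LV, 9 higher and 5 lower, beside 10.8% and 8.26%. Kcnj2, Kcnj3, Kcnj5, Kcnj12, Kcnk3, Kcnd2, Kcng2, Kcnh2 and Kcnip2 were higher at the higher dose in each ventricle. Kcnj3 in LV was 179, 189.6, 201, 214 and 247 CPM at the higher dose and 82.5, 90.3 and 158 CPM at the lower, without overlap (0.92, SE 0.15, edgeR adjusted p = 0.00134). Kcnd2 in RV was 59.6, 67.7, 69.7, 78.7 and 98.8 CPM against 29.4, 40.002 and 59.3 CPM (0.81, SE 0.16, adjusted p = 0.00657), and Kcnip2 in RV 91.2, 92.4, 94.5, 104 and 112 CPM against 33.4, 59.8 and 81.2 CPM (0.74, SE 0.15, adjusted p = 0.00718). Kcnk3 and Kcnj5 were higher in LV without overlap (0.73 and 0.67, adjusted p = 0.00178 and 0.00334).

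Kcnt2 was lower at the higher dose in each ventricle. In RV it was 24.2, 29, 30.1, 32.9 and 35.6 CPM against 41.7, 59.6 and 63.2 CPM (-0.91, SE 0.13, edgeR adjusted p = 0.00197), and the LV values did not overlap either (-1.05, SE 0.20, adjusted p = 0.00285). Kcnt1, its closest relative, was lower in LV (-1.01, SE 0.31, adjusted p = 0.0324), as was Kcnq1ot1 (-0.49, SE 0.09, adjusted p = 0.00276), and Kcnk6 was lower in RV (-0.62, SE 0.15, adjusted p = 0.0194). The cardiomyocyte marker sum of the groups overlapped in each ventricle (40051 to 49343 against 26288 to 41918 CPM in RV; 29464 to 53377 against 23087 to 33199 in LV) with the higher dose on the high side. The fibroblast markers did not overlap. They summed to 1038 to 1142 CPM at the higher dose against 1387 to 2546 CPM in RV (5 of 6 lower), and to 851 to 1058 against 1307 to 2551 CPM in LV (6 of 6 lower). The part of either marker list in these calls was not tested.

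The time of the higher dose was compared between AAV_1E14_2.5wk and AAV_1E14. In RV 11 of 40 members were called, 2 higher and 9 lower after the late dose, beside 4.97% and 3.95% of all genes. In LV edgeR called 0 of 37, with 0.00% of all genes, 10 members had an unadjusted p under 0.05, and DESeq2 called 0. Kcnj2 in RV ranged over 147, 169 and 226 CPM after the late dose, below all 5 early-dose libraries (-0.62, SE 0.12, edgeR adjusted p = 0.00901). Kcnj5 did the same with 52.5, 57.6 and 85.4 CPM against 91.9 to 114 CPM (-0.69, SE 0.12, adjusted p = 0.00722), and Kcnk3 with 115, 139 and 161 CPM against 166 to 289.9 CPM (-0.58, SE 0.13, adjusted p = 0.0173). Kcnj3, Kcnd2, Kcnip2, Kcnh2, Kcna2 and Kcnv2 were lower too. Kcna4 was higher after the late dose (10.7 to 16.4 against 5.05 to 9.20 CPM; 1.03, SE 0.18, adjusted p = 0.00755), as was Kcnb2 at the low levels given above (4.35, SE 0.73, adjusted p = 0.00649). The count was 7 without AAV_1E14_2.5wk_RV_5755 or AAV_1E14_2.5wk_RV_5807, 9 without AAV_1E14_2.5wk_RV_5814 and 14 without AAV_1E14_2.5wk_RV_5801. The LV count was 0 without AAV_1E14_2.5wk_LV_5814 too. In RV the fibroblast markers summed to 1188 to 3212 CPM after the late dose and to 1038 to 1142 CPM after the early dose, without overlap (3 of 6 higher). The cardiomyocyte markers summed to 30887 to 46988 CPM against 40051 to 49343 CPM (2 of 7 lower) and the atrial markers to 31.6 to 639 CPM against 7.93 to 38.0 CPM. Nppa alone held a mean of 22.4 CPM of a mean atrial sum of 25.1 in AAV_1E14 RV. The part of these markers in the calls was not tested.

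The ventricles of the same animals were compared within each group. The main fit took the 2 libraries of an animal as independent, and the fit with the animal as a replicate block was an alternative. In WT, 10 of 36 members were called between RV and LV, 8 higher and 2 lower in RV, beside 12.3% and 15.4% of all genes. Kcna6 was the one without overlap, at 5.73, 7.14 and 8.46 CPM in RV and 0.557, 1.56 and 4.03 CPM in LV (1.64, SE 0.30, edgeR adjusted p = 5.79e-04). Kcna1, Kcna2, Kcnd2, Kcnn3, Kcnt2 and Kcnq1ot1 were also among those higher in RV, and Kcna4 and Kcnj2 lower. Without the animal of WT_RV_5819, 9 were called, 6 higher and 3 lower. In cKO edgeR called 0 of 37 members and 0.00726% of all genes, with 1 member at an unadjusted p under 0.05 and 0 by DESeq2. The uncalled estimates from these 4 animals were 1.57 (SE 0.50) for Kcnd2 and 1.68 (SE 0.79) for Kcna6. The lack of calls therefore does not show that the ventricles of cKO were alike.

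In AAV_3E13 7 of 39 members were called, 5 higher and 2 lower in RV, beside 10.8% and 9.49% of all genes. Kcnd2 was 29.4, 40.002 and 59.3 CPM in RV and 13.3, 14.9 and 24.1 CPM in LV, apart from each other (1.32, SE 0.15, edgeR adjusted p = 1.86e-04), and Kcna6 (1.48, SE 0.24, adjusted p = 8.08e-04) and Kcnj3 (0.94, SE 0.16, adjusted p = 9.95e-04) did not overlap either. In AAV_1E14 5 of 37 were called higher in RV and 0 lower, beside 1.41% and 1.54% of all genes, namely Kcna2, Kcna6, Kcnd2 (1.34, SE 0.19, adjusted p = 0.00947), Kcnj2 and Kcnj3. With the animal as a replicate block the Kcna6 call was lost (1.15, adjusted p = 0.0709). The count fell to between 0 and 3 when any one animal was left out, to 0 without the animal of AAV_1E14_RV_5825, and to 1 without that of AAV_1E14_RV_5726 or AAV_1E14_RV_5822. In AAV_1E14_2.5wk edgeR called 0 of 39, beside 0.0226% of all genes, with 11 members at an unadjusted p under 0.05 and 0 by DESeq2. With the animal as a replicate block 1 member, Kcna2, was called there (0.86, adjusted p = 0.0344). Without the animal of AAV_1E14_2.5wk_RV_5814 the count was again 0.

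**Figure D5:**
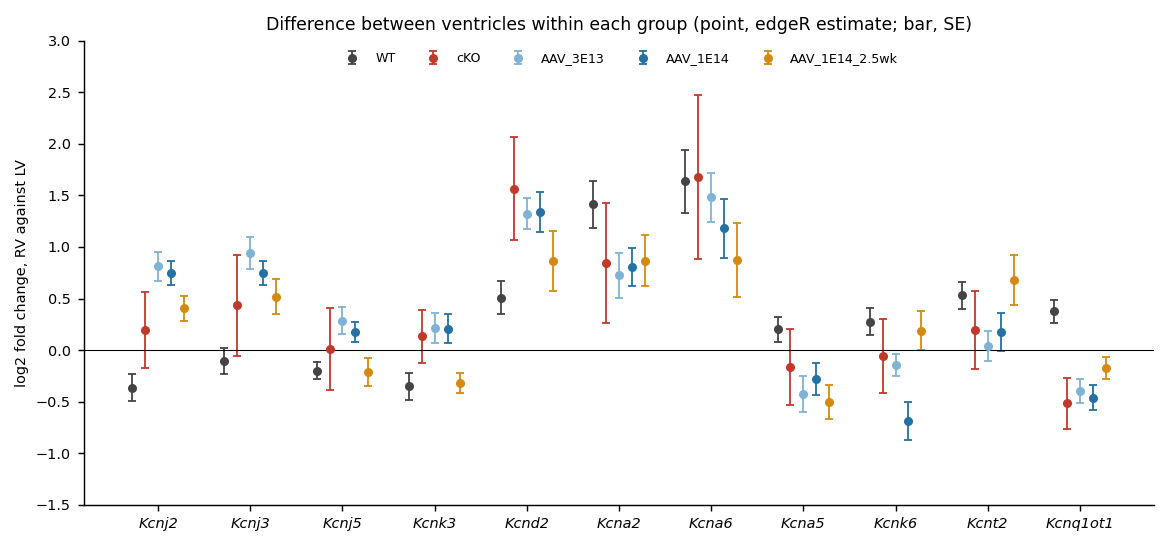
Log2 fold change of RV against LV with its standard error in each group, for 11 members. Kcnd2 lies above 0 in WT, cKO (1.57, not called), AAV_3E13 (1.32) and AAV_1E14 (1.34). Kcna6 stands at 1.64 in WT, 1.68 in cKO (not called) and 1.48 in AAV_3E13.

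The difference of each group's change against WT between RV and LV was tested as an interaction, again without the animal as a term in the main fit. For cKO edgeR called 0 of 47 members and 0.0272% of all genes, with 5 members at an unadjusted p under 0.05. With the animal as a replicate block 1 member, Kcnq1ot1, was called for cKO (-0.89, edgeR adjusted p = 0.0305). For AAV_3E13, 14 of 44 members were called, beside 36.9% of all genes. The change was more positive in RV for Kcnj2 (1.19, SE 0.20, edgeR adjusted p = 2.05e-05), Kcnj3 (1.05, SE 0.21, adjusted p = 1.54e-04) and Kcnd2 (0.83, SE 0.23, adjusted p = 0.00502) and more negative in RV for Kcnq1ot1 (-0.77, adjusted p = 3.24e-04). For AAV_1E14, 7 of 45 were called, beside 20.0% of all genes, with Kcnj2 (1.11, SE 0.20, adjusted p = 4.81e-04), Kcnj3 (0.85, adjusted p = 0.00285), Kcnk6 (-0.95, adjusted p = 0.00231) and Kcnq1ot1 (-0.83, adjusted p = 0.0016) among them. For AAV_1E14_2.5wk, 5 of 46 were called, beside 18.4% of all genes, and the Kcnj2 change was more positive in RV (0.78, adjusted p = 0.00697). Of these counts, that of AAV_3E13 fell to 9 without the animal of AAV_3E13_RV_2047 or AAV_3E13_RV_5768, and that of AAV_1E14_2.5wk fell to 3 without the animal of AAV_1E14_2.5wk_RV_5801 or AAV_1E14_2.5wk_RV_5814. The members' share of calls was below that of all genes in each of these tests. The 4 tests share the WT animals, so Kcnj2, Kcnj3 and Kcnq1ot1 recurring among them is not independent evidence.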

How the data were processed

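RNA was sequenced from the right and left ventricles of 32 mice, 9 WT, 4 cKO, 8 AAV_3E13, 5 AAV_1E14 and 6 AAV_1E14_2.5wk. Per the submitters, reads went through fastp and the authors quantified them with Salmon 1.8.0 on the GRCm39 transcriptome and deposited estimated counts per gene through tximport, with TPM values and effective lengths. The kit was a stranded total RNA kit with ribosomal depletion, while a label names polyA RNA. The estimated counts were rounded to whole numbers, which moved a library total by at most 5.26e-04%, and a row without a gene name (at most 0.00136% of counts) and 37 mitochondrial genes were left out. No 2 libraries were identical.

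Groups were compared within a ventricle by edgeR 4.0.16 in R 4.3.3 (TMM, quasi-likelihood test, all genes passing the tool's count filter, Benjamini-Hochberg threshold 0.05). Ventricles and the interaction of group and ventricle were fitted on both, without the animal as a term in the main fit. Libraries with the same number in RV and LV come from 1 animal by their labels, and the correlation of their deviations over 15313 genes had a median of 0.127 (-0.0367 to 0.573, over 0.1 in 21 of 32). In the 4 cKO animals this correlation was 0.234, 0.248, 0.401 and 0.573. Alternatives were DESeq2 1.42.0, RLE normalisation, other filters, effective lengths, an unequal-variance test on log2(TPM + 1), 1 fit per ventricle and the animal as block. Each library was also left out in turn, or each animal where both ventricles were fitted. Tests were checked on simulated counts. Named genes were Pkp2, the repolarisation list, up to 10 rises and falls in cKO and up to 3 in other comparisons, the largest among called genes that did not overlap and reached 1 CPM in the higher group, and up to 3 genes by p on each partner list. Others were named after their values were seen. Members and lists were chosen with earlier results of these data known. A few single genes are not reported here, though the counts include them. Figures were drawn with matplotlib 3.10.9. For groups compared within a ventricle, the p-values cover the spread between these animals. In the main fits on both ventricles they treat the 2 libraries of an animal as independent, so there they do not measure that spread.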

Additional observations from a re-analysis of the deposited data

Results flagged for a closer look

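Among 34 named genes, 308 sets of libraries of 1 gene in 1 group were searched for a library far from its group, and 20 held one. Chance flags about 1 in 20 such sets. In AAV_1E14_2.5wk RV the library AAV_1E14_2.5wk_RV_5801 stood above the others in 4 genes: Kcnj3 at 320.1 CPM (others 165 to 209), Kcnd2 at 66.7 CPM (21.2 to 36.4), Kcnn2 at 40.5 CPM (20.1 to 25.2) and Kcnv2 at 21.1 CPM (5.64 to 9.57).

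The other single libraries that stood high were Kcna2 at 36.3 CPM in AAV_1E14_RV_5825 and at 40.6 CPM in AAV_3E13_RV_5809, Kcna5 at 52.7 CPM in WT_LV_5819, Kcnc1 at 6.70 CPM in AAV_3E13_LV_5809 and at 7.52 CPM in WT_LV_2027, and Kcnj15 at 10.4 CPM in AAV_3E13_LV_5768. Kcnj8, whose values were not read as levels above, stood at 20.1 CPM in AAV_3E13_LV_2033 and at 16.4 CPM in AAV_3E13_RV_2045. Kcnk1 stood at 3.56 CPM in WT_RV_5819, Kcnk13 at 10.4 CPM in cKO_RV_2006 and Kcnk2 at 8.08 CPM in AAV_3E13_LV_2045. Kcnk3 stood at 149.6 CPM in AAV_3E13_LV_2033. Libraries that stood low were Kcna4 at 7.71 CPM in AAV_1E14_2.5wk_LV_5806 (others 13 to 15.4), Kcnip2 at 53.5 CPM in AAV_1E14_2.5wk_LV_5810, Kcnj12 at 4.61 CPM in WT_RV_5813 and Kcnj3 at 268 CPM in AAV_1E14_RV_5726.

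The change against WT differed between the ventricles in 23 tests of a member by the edgeR interaction term, all in vector groups. In AAV_3E13 the RV change minus the LV change was positive on the log2 scale for Kcnj2 (1.19), Kcnj3 (1.05), Kcnd2 (0.83), Kcnj5 (0.50), Kcnk3 (0.58) and Kcnk1 (1.95). It was negative for Kcna5 (-0.62), Kcnj15 (-1.08), Kcnk6 (-0.41), Kcnn3 (-0.77), Kcnq1ot1 (-0.77), Kcnt1 (-1.64) and Kcnt2 (-0.48). With the animal as a replicate block the calls of Kcnk3 (0.53, edgeR adjusted p = 0.075) and Kcnt2 (-0.46, adjusted p = 0.114) were lost. In AAV_1E14 it was positive for Kcnd2 (0.84), Kcnj2 (1.11), Kcnj3 (0.85) and Kcnj5 (0.38) and negative for Kcnk6 (-0.95) and Kcnq1ot1 (-0.83). In AAV_1E14_2.5wk it was positive for Kcnj2 (0.78) and Kcnj3 (0.63) and negative for Kcna5 (-0.70) and Kcnq1ot1 (-0.54). The median over all genes of the AAV_3E13 difference was -0.10, and -0.17 with DESeq2.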

How the results depend on the processing

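No called member changed direction under any alternative run. Under other settings 1968 calls of single genes held and 298 were lost. When a library or an animal was left out, 3524 held and 447 were lost. The unequal-variance test on log2(TPM + 1) called fewer members: 12 in RV and 12 in LV for cKO against WT, 6 for AAV_3E13 against WT in RV, 0 for AAV_1E14_2.5wk against WT in LV, 1 for AAV_3E13 against cKO in LV, 15 and 5 for AAV_1E14 against cKO in RV and LV, 13 and 2 for AAV_1E14_2.5wk against cKO, 4 and 7 for AAV_1E14 against AAV_3E13, 0 for AAV_1E14_2.5wk against AAV_1E14 in RV and 0 for RV against LV in AAV_1E14. With effective lengths the counts were 9 for AAV_3E13 against WT in RV, 3 for RV against LV in AAV_1E14 and 3 for the ventricle difference of AAV_1E14_2.5wk, and with the filter on mean CPM 3 for RV against LV in AAV_1E14. DESeq2 gave 7 for AAV_1E14_2.5wk against WT in LV, 9 for RV against LV in AAV_1E14 and 1 for the ventricle difference of cKO. The animal as a replicate block gave 1 for RV against LV in AAV_1E14_2.5wk and 1 for the ventricle difference of cKO; it moved no other count by over 1.5 times, and Kcna6 in AAV_1E14 and Kcnk3 and Kcnt2 in the AAV_3E13 ventricle difference lost their calls. The cause of these shifts was not tested. The share of all genes called under each of these settings is not given here, so these counts are not read as a result about the members. The unequal-variance test is of the kind the study itself used, Welch's t test on log-transformed TPM.

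Leaving out 1 library gave 6 to 14 calls for AAV_1E14 against WT in RV, 0 to 5 for AAV_1E14_2.5wk against WT in LV, 9 to 13 for AAV_1E14 against AAV_3E13 in RV and 7 to 14 for AAV_1E14_2.5wk against AAV_1E14 in RV. For RV against LV in AAV_1E14, leaving out both libraries of 1 animal gave 0 to 3 calls. Leaving out 1 animal from the ventricle differences, which was added after seeing the data, gave 9 to 14 calls for AAV_3E13, 3 to 6 for AAV_1E14_2.5wk, 5 to 8 for AAV_1E14 and 0 in each case for cKO. Uncalled genes changed sign. In RV of cKO Kcne1 became 0.65 with effective lengths and 0.22 in the unequal-variance test (-0.185 to 0.0757 without 1 library), Kcnk2 -0.14 and -0.17 (-0.10 to 0.23) and Kcnj8 ranged from -0.10 to 1.62. In LV Kcna4 became 0.43 and 0.25 (-0.27 to 0.16), Kcna5 ranged from -0.402 to 0.0162 and Kcnk2 from -0.0907 to 0.122. Tests were possible for 50 members, and the other 49 held too few counts for one.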
